A study of Mus musculus with 22 samples.

Results

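The LIM-homeodomain genes followed here are Lhx1, Lhx2, Lhx3, Lhx4, Lhx5, Lhx6, Lhx8, Lhx9, Isl1 and Isl2, that is 10 of the 20129 genes that the array names through RefSeq. They were taken as a list of family members. Each gene was read from its RefSeq-identified probe with the highest median over the arrays. The brains came from male mice of the inbred strain C57BL/6J, untreated and with no engineered allele in the labels. Each brain was sliced along 1 axis and neighbouring slices were pooled into slabs called fractions, 10 from the mouse cut coronally, 6 from the mouse cut horizontally and 6 from the mouse cut sagittally. On age the labels differ, with P7 in the titles and 3 days in the age field. Each of the 22 fractions was hybridised to 1 one-colour array, so there is no replicate of a fraction, and mouse and series cannot be told apart.

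A LIM-homeodomain factor joins a DNA-binding homeodomain to a pair of LIM domains, through which it binds the cofactor Ldb1 and, over Ldb1, further factors. The genes of the family are known for giving neurons their identity, and many are used again in different places. Lhx1 and Lhx5 act in hindbrain and spinal interneurons and in Purkinje cells, Lhx3 and Lhx4 in motor neurons, V2 interneurons and the pituitary, and Isl1 and Isl2 in motor and sensory neurons. Lhx2 patterns the cortex, Lhx6 and Lhx8 act in derivatives of the medial ganglionic eminence, and Lhx2 and Lhx9 are known from the thalamus. Because each fraction is bulk tissue, fewer cells of a type and less RNA per cell cannot be told apart.

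RefSeq promoters of 4 members are shown, Lhx1 and Lhx3 for the genes highest at the caudal end and Lhx8 and Isl1 for the pair highest in coronal fraction 8. Each is the 250 bases before the annotated start on GRCm38.p6, written 5′ to 3′ along the gene, with capitals marking the letters of a TATA box, TATAAA, of the binding box of Sp1-like factors called a GC box, GGGCGG, or of a CCAAT box on either strand. Another Lhx3 entry is not shown.
Lhx1, chr11:84525535-84525784, minus strand: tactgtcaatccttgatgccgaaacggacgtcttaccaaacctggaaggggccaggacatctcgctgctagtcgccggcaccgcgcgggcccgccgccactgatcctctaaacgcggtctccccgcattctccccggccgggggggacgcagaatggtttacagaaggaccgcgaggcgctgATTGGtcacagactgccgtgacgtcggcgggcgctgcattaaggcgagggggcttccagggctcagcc
Lhx3, chr2:26208250-26208499, minus strand: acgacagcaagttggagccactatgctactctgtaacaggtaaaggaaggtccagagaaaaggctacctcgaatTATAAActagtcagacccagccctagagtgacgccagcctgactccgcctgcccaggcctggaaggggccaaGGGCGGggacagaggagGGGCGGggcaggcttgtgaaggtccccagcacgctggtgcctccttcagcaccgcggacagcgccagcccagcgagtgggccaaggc
Lhx8, chr3:154330561-154330810, minus strand: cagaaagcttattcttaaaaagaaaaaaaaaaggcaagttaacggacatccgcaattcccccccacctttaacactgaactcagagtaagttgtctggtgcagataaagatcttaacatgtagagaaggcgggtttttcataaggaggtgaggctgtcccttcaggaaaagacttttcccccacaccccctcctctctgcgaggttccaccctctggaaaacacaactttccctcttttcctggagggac
Isl1, chr13:116309689-116309938, minus strand: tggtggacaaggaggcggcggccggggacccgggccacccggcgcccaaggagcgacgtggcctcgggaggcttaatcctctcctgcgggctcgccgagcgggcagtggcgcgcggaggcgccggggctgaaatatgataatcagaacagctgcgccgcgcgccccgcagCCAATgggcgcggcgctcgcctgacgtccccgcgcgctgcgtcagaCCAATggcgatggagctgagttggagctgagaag
The TATA box letters stood in the Lhx3 entry shown, with both GC boxes after it, while the Lhx1 and Isl1 promoters held CCAAT and the Lhx8 promoter held none of the motifs. The promoter table matched 9 of the 10 genes with 13 entries. The homeodomain core TAATTA was in 0 of the 13, against 4.84% of all 32851 promoters of this length. TATAAA was in 1 of 13 against 12.4%, GGGCGG in 7 against 32.7% and CCAAT in 6 against 33.8%, each searched on both strands and none overlapping another. The 13 had a median of 16 CpG dinucleotides and 64.8% GC, against 6 and 52.4% over all promoters. The Lhx8 promoter, at 46% GC and 4 CpG, lay below the median of all promoters on both counts, and that of Isl1 far above, at 71.2% and 33. A match here is a match of letters and no measured site.

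A level here is a log2 intensity set against the 75th percentile of the same array, so a probe at 0 is as bright as that percentile. Levels of different probes are not on 1 scale, and only the course of a gene along a series is compared between genes. A value that the scanner software did not mark as well above background is a bound, and a fold against it is given as at least that fold, taken against the higher of the value and the lowest signal marked well above background on that array. The labels do not say at which end numbering began. Of 12 Hox genes, which mark the caudal hindbrain, 11 were highest in coronal fraction 1, and of 8 olfactory bulb genes 7 were highest in coronal fraction 10. In the horizontal series 5 of 7 cortex genes were highest in fraction 1 and 8 of 12 hypothalamic genes in fraction 6. In the sagittal series 7 of 7 cortex genes were highest in fraction 1 and 7 of 9 midbrain genes in fraction 4. Coronal numbers are therefore read as running from caudal to rostral and horizontal numbers from dorsal to ventral. The share of probes well above background ran from 53.2% to 75.5% over the arrays. The slope of the E1A spike-ins was out of the accepted range on 7 arrays, coronal fractions 1 and 2, horizontal fractions 1 to 3 and sagittal fractions 1 and 3. On these the dim spike-in a107 read 6.38 to 8.23 log2 units, against 2.86 to 4.96 on the 15 arrays in range. Most of these arrays carry the low numbers of their series, so array quality and position run together.

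Along the coronal axis, 8 of the 9 members that entered the test changed with position. Of the 9, 5 were called with slide as a random block, 4 with a107 as a covariate and 2 on the arrays in range, Lhx1 and Lhx5 in each of these fits. Lhx1, Lhx3, Lhx4 and Lhx5 were highest at the caudal end, Lhx2 and Lhx9 in fractions 5 and 6, and Lhx8 and Isl1 in fraction 8. Each called member differed by at least 8.49-fold between its highest and lowest coronal fraction. Position was tested in limma with a linear and a quadratic term for each series, over probes well above background in at least 1 fraction of each series, and 19.8% of the 39621 probes were past the threshold of 0.05 after Benjamini-Hochberg adjustment. Lhx3, Lhx4, Lhx8 and Isl1 entered the test although they were below background in some fractions, so their passing the filter is tied to where they are high. Of the 5 members well above background on all 22 arrays 4 were called, both in this test and in one over such probes only, where 8458 of 25815 passed. The median measured range of the 9 members along the coronal series was 4.89 log2 units, or 4.80 with dim values set to their bound, against 1.61 over all probes tested. Isl2 did not enter the test. Of the 9 members 5 were highest in coronal fractions 1 to 3, as were 52.0% of all probes.

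**Figure D1:**
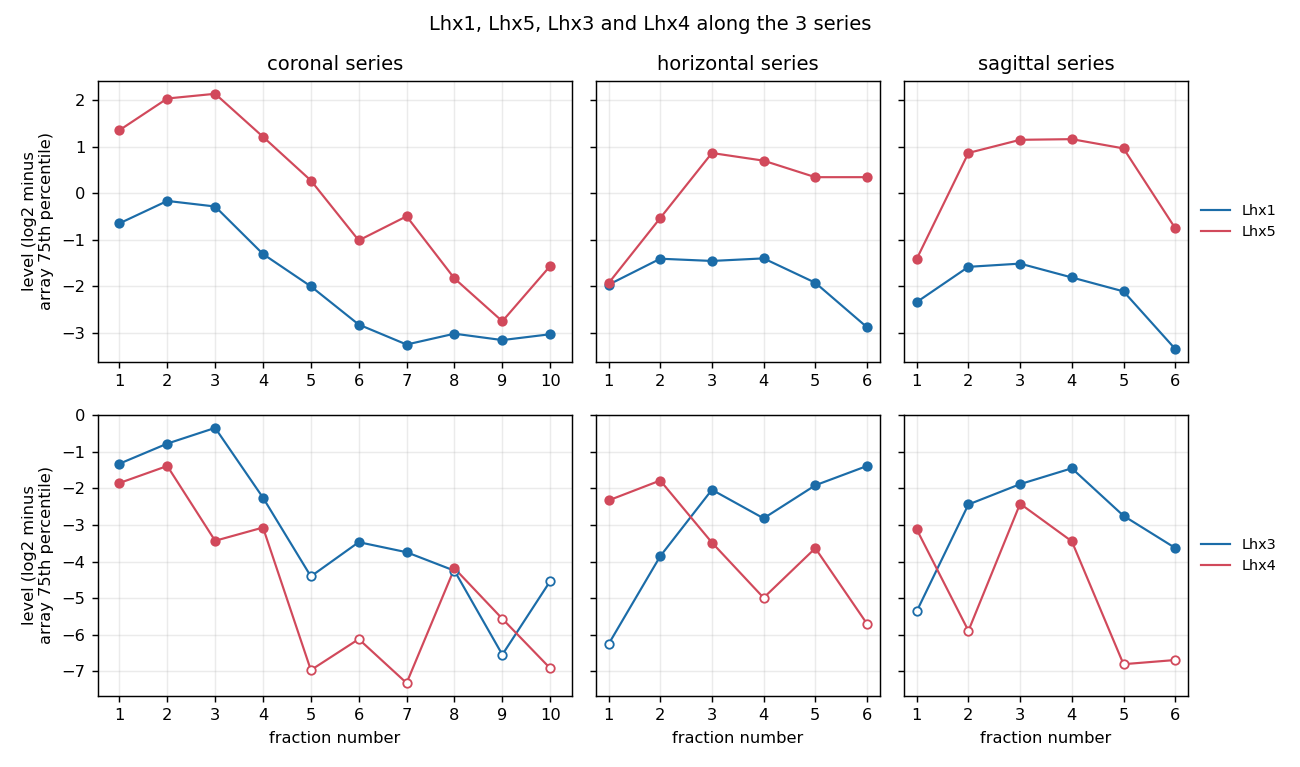
Level (log2 intensity relative to the 75th percentile of the array) of Lhx1 and Lhx5 (top row) and Lhx3 and Lhx4 (bottom row) against fraction number in the coronal, horizontal and sagittal series, 1 array per point, with open circles for values not well above background. The 4 genes are at their highest in coronal fractions 2 or 3, and Lhx3 rises towards horizontal fraction 6 (-1.39) while Lhx1 is lowest there (-2.88).

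Lhx1, which acts in interneurons and Purkinje cells, was well above background on all 22 arrays. In the coronal series it ranged from -3.25 in fraction 7 through a median of -2.41 to -0.16 in fraction 2. Fractions 1 to 3 stood at -0.65, -0.16 and -0.28, fraction 4 at -1.31, and fractions 6 to 10 all lay at or below -2.82. The gene thus fell from the caudal end and then stayed low, an 8.49-fold difference. The fitted linear term was -3.47 ± 0.39 log2 units from end to end (SE, limma), with an adjusted p of 0.000443. Along the horizontal series the level lay between -2.88 in fraction 6 and -1.40 in fraction 4, with a median of -1.69 and an adjusted p of 0.0911 in limma, which does not pass.

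Lhx5, the close relative of Lhx1, was also well above background everywhere and was highest in the same stretch. Its coronal levels were 1.35, 2.04, 2.14 and 1.21 in fractions 1 to 4, with a median of -0.11 over the series and a lowest value of -2.75 in fraction 9. The fall was 29.6-fold, the linear term -4.77 ± 0.62 and the adjusted p 0.00104 in limma. In the horizontal series it was lowest dorsally, at -1.93 in fraction 1, and highest in fraction 3, at 0.86, with a median of 0.35. This 6.95-fold difference had an adjusted p of 0.0686 in limma. The genes parted ventrally: from horizontal fraction 4 to 6 Lhx1 went from -1.40 to -2.88, while Lhx5 went from 0.70 to 0.35.

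Lhx3, a factor of motor neurons, V2 interneurons and the pituitary, was well above background on 16 arrays. Its coronal levels were -1.32, -0.77, -0.34 and -2.25 in fractions 1 to 4, with a median of -3.60 over the series, and it was below background in fractions 5, 8, 9 and 10. It was at least 36.1-fold higher in fraction 3 than in fraction 9, with a linear term of -5.10 ± 0.90 and an adjusted p of 0.00583 in limma. From dorsal to ventral it was below background in fraction 1, stood at -3.85 in fraction 2 and was highest in fraction 6, at -1.39, with a median of -2.43. The linear term there was 4.20 ± 1.06 and the adjusted p 0.0463 in limma, and the ventral end was at least 19.5-fold above fraction 1. This horizontal call was lost without any 1 of the 6 horizontal or 6 sagittal fractions or without coronal fraction 4, 6 or 7 (adjusted p 0.0565 to 0.359 in limma), and with a107 as a covariate (0.210).

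Lhx4, the close relative of Lhx3, was dimmer in its own range, being well above background on 12 arrays. In the coronal series it was detected in fractions 1 to 4, at -1.85, -1.39, -3.43 and -3.07, and in fraction 8, at -4.18. The median of the series was -4.87. It was at least 25.7-fold higher in fraction 2 than in fraction 7, with a linear term of -5.05 ± 1.42 and an adjusted p of 0.0365 in limma. The call was lost without coronal fraction 1, 2, 3, 6, 7 or 9 (adjusted p 0.0505 to 0.116 in limma) with slide as a block (0.0703) and with a107 as a covariate (0.0994). Lhx4 was higher on the arrays with the spike-in slope out of range, with a median of -2.33 over 7 arrays against -5.70 over 15, and its r with a107 over the 22 arrays was 0.666. The part of array quality in its course was not tested.

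Isl2, a factor of motor and sensory neurons, was well above background on 2 arrays only, coronal fraction 1 at -3.69 and sagittal fraction 4 at -3.92. It stood at least 5.20-fold higher in coronal fraction 1 than in coronal fraction 7. Markers of the sensory ganglia, of which 7 of 10 were measured, were also highest in coronal fraction 1, with a summed level of 15.6 times the 75th percentile, against 2.29 to 6.92 in the other coronal fractions. Of the 7 genes 5 were highest there, among them Calca and Prph. Scn10a was highest in coronal fraction 7 and P2rx3 in fraction 10. Prph is also on the list of hindbrain motor and V2 neuron genes counted below, so it does not tell ganglia from hindbrain. The part of ganglia in the Isl2 value was not tested.

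**Figure D2:**
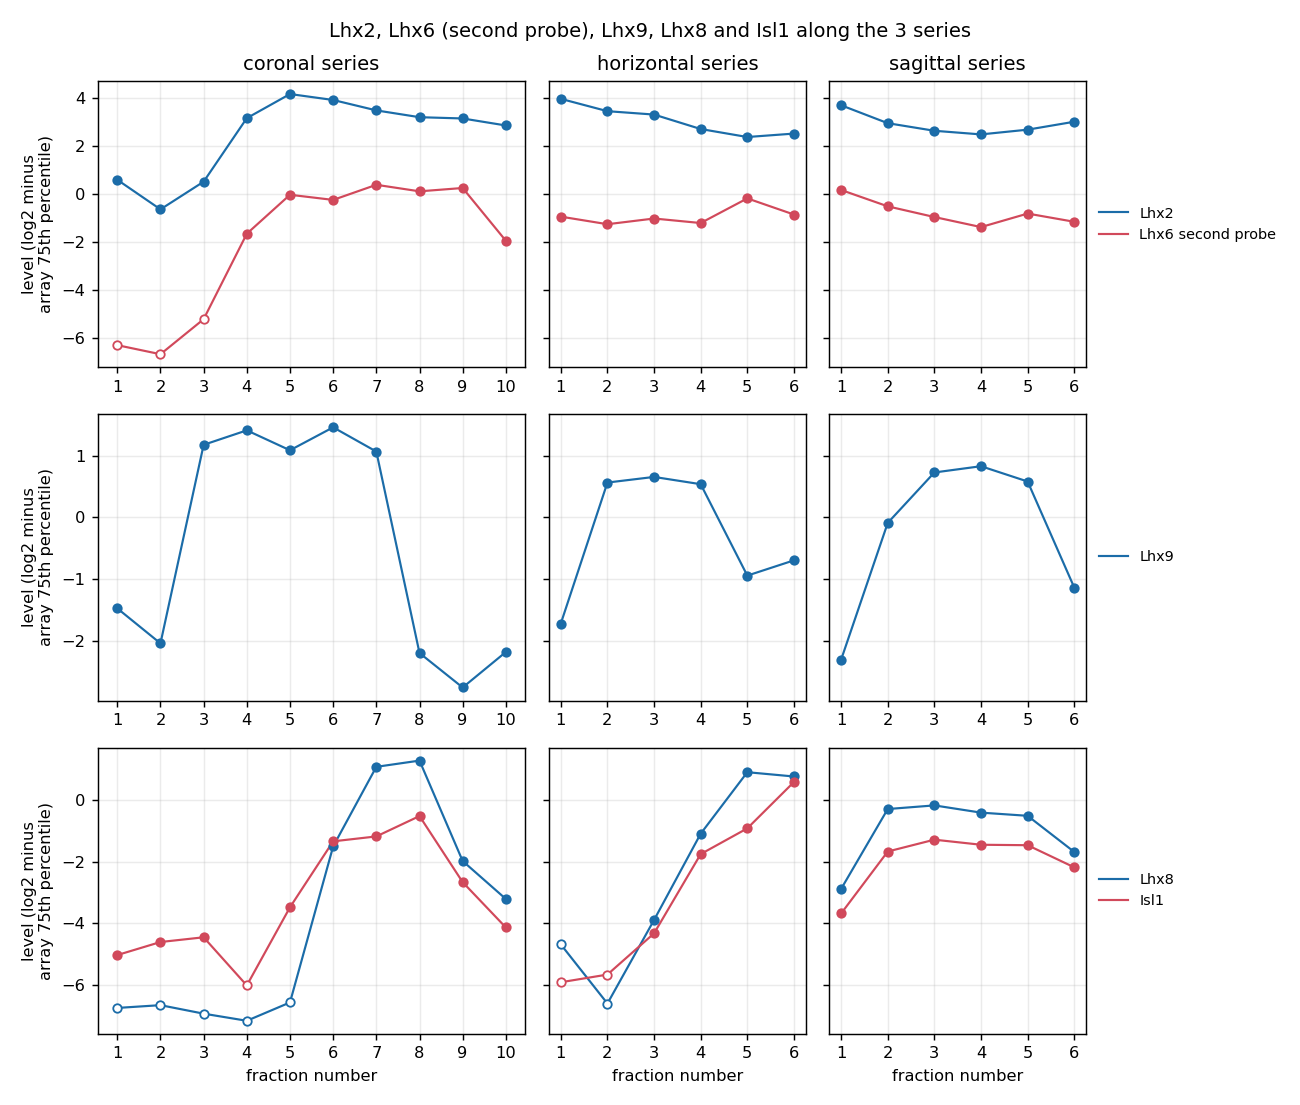
Level (log2 intensity relative to the 75th percentile of the array) of Lhx2 and the second probe of Lhx6 (top), Lhx9 (middle), and Lhx8 and Isl1 (bottom) against fraction number in the 3 series, 1 array per point, with open circles for values not well above background. Lhx2 steps up between coronal fractions 3 (0.51) and 4 (3.15), Lhx9 stays between 1.07 and 1.46 from fraction 3 to 7, and Lhx8 and Isl1 peak in fraction 8.

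Lhx2, a selector gene of the cortex, ran the other way to the caudal group. Its coronal levels were 0.59, -0.65 and 0.51 in fractions 1 to 3 and between 2.85 and 4.15 in fractions 4 to 10, with the highest in fraction 5 and a median of 3.14. The difference between fractions 5 and 2 was 27.9-fold, with a linear term of 3.34 ± 0.69 and an adjusted p of 0.00333 in limma. From dorsal to ventral it went from 3.95 in horizontal fraction 1 to 2.37 in fraction 5 and 2.51 in fraction 6, with a median of 3.00 and an adjusted p of 0.278 in limma. In the sagittal series it was highest in fraction 1, at 3.69, and lowest in fraction 4, at 2.47.

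Lhx9, the close relative of Lhx2, was flat and high over a middle stretch. It stood at -1.48 and -2.04 in coronal fractions 1 and 2, between 1.07 and 1.46 in fractions 3 to 7, and between -2.76 and -2.18 in fractions 8 to 10. The highest fraction was 18.6-fold above the lowest. The adjusted p was 0.0202 in limma, with a linear term of -1.67 ± 0.97 that alone did not pass (0.507 with the linear term alone). The call was also lost with a107 as a covariate (0.0562) and with slide as a block (0.0782). Both other probes of Lhx9 were highest in coronal fraction 6 as well, with adjusted p of 0.00721 and 0.0336 in limma. At the caudal end the first of them was low in fraction 1 only, at -4.21, with -3.01 in fraction 2 against -3.47 in fraction 3. It was below background in fractions 8 to 10. The other went from -3.33 to -0.58 from fraction 2 to 3. Along the horizontal series Lhx9 stood at 0.56, 0.66 and 0.54 in fractions 2 to 4 and between -1.72 and -0.70 in fractions 1, 5 and 6 (adjusted p 0.312 in limma).

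Lhx6, a factor of cortical interneurons, has 3 RefSeq probes on the array. A pair of them carry the same transcript identifier, and the third carries another identifier. The probe with the highest median, well above background on all 22 arrays, read 6.41 and 7.31 in coronal fractions 1 and 2, 5.84 in fraction 8 and 3.17 to 4.33 in the others. It read 6.25 to 7.31 in horizontal fractions 1 to 3 and 3.00 to 3.90 in fractions 4 to 6. On the 7 arrays with the spike-in slope out of range it lay between 5.71 and 7.31, and on the 15 in range between 3.00 and 5.84, so the groups overlapped through coronal fraction 8 alone. Its r with a107 over the 22 arrays was 0.901, against a median of 0.07 over the 39621 probes, of which 9.04% were above 0.85. It passed for neither axis (adjusted p 0.187 and 0.119 in limma). The part of array quality in this probe was not tested.

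The second Lhx6 probe was below background in coronal fractions 1 to 3, stood at -1.66 in fraction 4, between -0.25 and 0.38 in fractions 5 to 9, and at -1.95 in fraction 10. It was at least 75-fold higher in fraction 7 than in fraction 2, with a linear term of 6.55 ± 0.78 and an adjusted p of 0.000157 in limma. Its r with a107 was -0.203. In the other series it moved less, from -1.26 to -0.19 along the horizontal and from -1.38 to 0.16 along the sagittal series. The r between the probes was -0.301 over 22 arrays, 0.332 over the in-range arrays, 0.034 over the 19 arrays where both were well above background, and 0.622 within the sagittal series. The third probe was not well above background on any array. The coronal linear term over all arrays was negative in the probe with the highest median, without passing, and positive in the second. On the in-range arrays, which leave out coronal fractions 1 and 2, the term of the probe with the highest median was positive too (adjusted p 0.562 in limma).

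**Figure D3:**
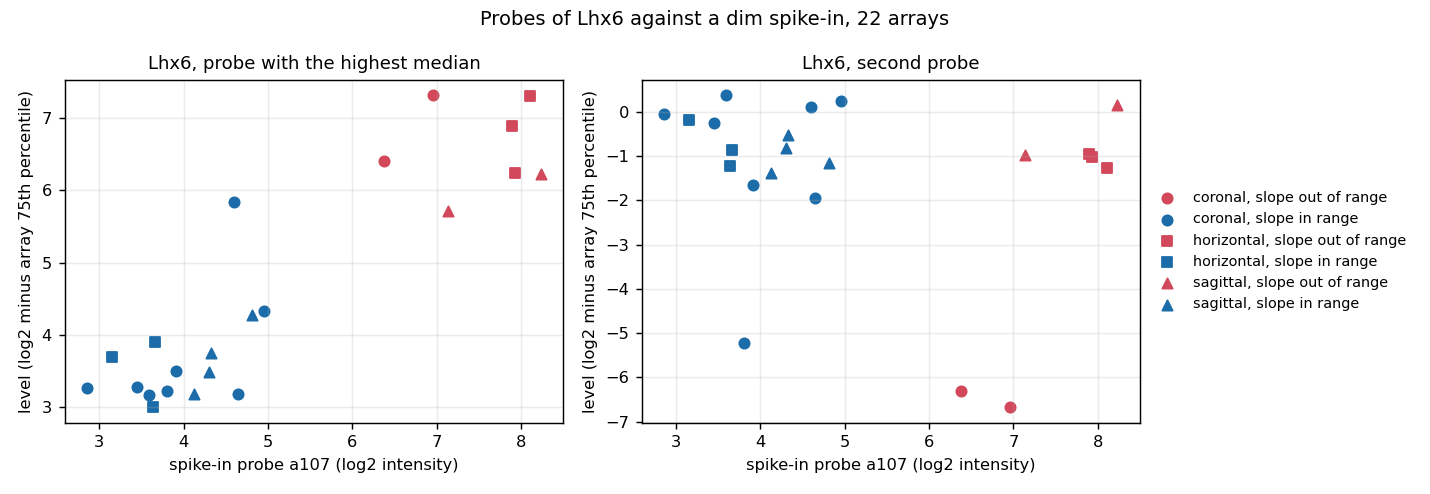
Level of Lhx6 (log2 intensity relative to the 75th percentile of the array) in the probe with the highest median (left) and the second probe (right) against the log2 intensity of spike-in probe a107, 1 point per array, with the shape giving the series and red against blue the 7 arrays with the spike-in slope out of range. On the left the red points lie between 5.71 and 7.31 and the blue points between 3.00 and 5.84 (r of 0.901 over all 22 arrays). On the right the red points spread from -6.67 to 0.16 (r of -0.203 over all 22 arrays).

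Lhx8, needed for forebrain cholinergic neurons, had the largest bound on a coronal difference among the members. It was below background in coronal fractions 1 to 5, then stood at -1.51, 1.07 and 1.27 in fractions 6 to 8 and at -1.98 and -3.21 in fractions 9 and 10, with a median of -4.88. Fraction 8 was at least 173-fold above fraction 4. The linear term was 7.39 ± 1.94 and the adjusted p 0.0312 in limma. The call was lost without coronal fraction 2, 6, 7 or 9 (adjusted p 0.0508 to 0.0668 in limma), with normexp background correction (0.107) and with a107 as a covariate (0.0677). In the horizontal series it was below background in fractions 1 and 2, stood at -3.89 and -1.10 in fractions 3 and 4, and reached 0.89 and 0.75 in fractions 5 and 6. That difference, of at least 127-fold, had an adjusted p of 0.0888 in limma.

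Isl1, which acts in striatal, cholinergic, hypothalamic and motor neurons, followed the same course with a higher caudal level within its own range. In the coronal series it stood between -5.02 and -4.45 in fractions 1 to 3, was below background in fraction 4, and rose over -3.48 in fraction 5 to -1.34, -1.18 and -0.53 in fractions 6 to 8. The median was -3.80, the linear term 3.10 ± 1.096 and the adjusted p 0.0496 in limma. This call was the weakest: of the 22 fits that each left out 1 fraction it was kept in 3 (adjusted p 0.0535 to 0.105 in limma in the other 19). It was kept in 5 of 13 alternatives and lost, among others, with slide as a block (0.0586), a107 as a covariate (0.118) and normexp background correction (0.0966). Fraction 8 was at least 44.7-fold above fraction 4. Along the horizontal series Isl1 was below background in fractions 1 and 2 and then stood at -4.32, -1.76, -0.92 and 0.58, the highest ventrally. The difference was at least 76.0-fold (linear term 7.02 ± 1.29, adjusted p 0.0222 in limma). The call was lost without horizontal fraction 1, 2, 5 or 6 (adjusted p 0.0610 to 0.0764 in limma) and with a107 as a covariate (0.162).

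Along the horizontal axis Lhx3 and Isl1 were thus the members called, 2 of 9, where 6.57% of all probes were. Both passed the filter through the fractions where they are high, and of the 5 members well above background on all 22 arrays 0 were called in limma in this test (adjusted p 0.0686 to 0.312, with 3 at an unadjusted p under 0.05). Of the 9 members 3 were highest in fraction 5 or 6, as were 30.9% of all probes. Pituitary markers were highest in the same ventral fraction: 11 of 13 were measured, and their summed level ran from 25.5 to 68.8 times the 75th percentile over the horizontal series, with the highest in fraction 6. Cga, the shared hormone subunit, was well above background in that fraction alone of the 6, at 3.01, as was Tshb, at -2.16, while Pou1f1 was not well above background in any horizontal fraction. Pomc, made in hypothalamus and pituitary, reached 2.66. All 6 meningeal markers were also highest in fraction 6. The part of these tissues in the ventral levels of Lhx3 and Isl1 was not tested.

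Along the sagittal axis no member passed. The linear term was called for 0 of 9 in limma (adjusted p 0.172 to 0.879, with 1 of 9 at an unadjusted p under 0.05), where 10.2% of all probes were. The quadratic term, which sets the middle against both sides, was called for 0 of 9 in limma, with 4 at an unadjusted p under 0.05, where 0.0303% of all probes were called. The nearest were Lhx5 (adjusted p 0.0883), Lhx3 (0.147) and Lhx1 (0.154). Of the 9 members 7 were highest in sagittal fraction 3 or 4, as were 20.2% of all probes. For Lhx9 these fractions stood at 0.73 and 0.83, against -2.31 in fraction 1 and -1.14 in fraction 6. Lhx3 was below background in fraction 1 and stood at -2.44, -1.88, -1.45, -2.75 and -3.63 in the others. Lhx8 and Isl1 were lowest in fraction 1, at -2.88 and -3.68, and highest in fraction 3, at -0.18 and -1.29. Lhx1 was highest in fraction 3 too, at -1.51, but lowest in fraction 6, at -3.34. For Lhx5 fractions 2 to 5 lay between 0.87 and 1.16, and fractions 1 and 6 at -1.41 and -0.75. Lhx2 and Lhx6 were the members highest in fraction 1, 2 of 9, as were 26.8% of all probes.

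Similarity of course was measured as the Pearson r over the 22 fractions. Fractions of a series share a mouse, and many share a slide, so r is given as a description with no p. Of the 45 pairs 2 had an r above 0.85, both among the 36 pairs of the 9 members tested. Over all pairs of probes tested the share was 1.91%. One of the 2 was Lhx8 with Isl1, a pair known before the count was made, and the other was Lhx3 with Lhx5. Lhx3 and Lhx5 had r of 0.917 and rho of 0.896. Within the coronal, horizontal and sagittal series r was 0.931, 0.919 and 0.945, and regressing out a107 left 0.917. It was 0.877 both over the 15 in-range arrays and on leaving out the 2 fractions in which Lhx3 lay farthest from its median, and 0.871 on the 16 arrays where both were well above background. Over the 36 pairs of the 9 members tested the median r was -0.07, with a lowest of -0.706 for Lhx2 with Lhx3.

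**Figure D4:**
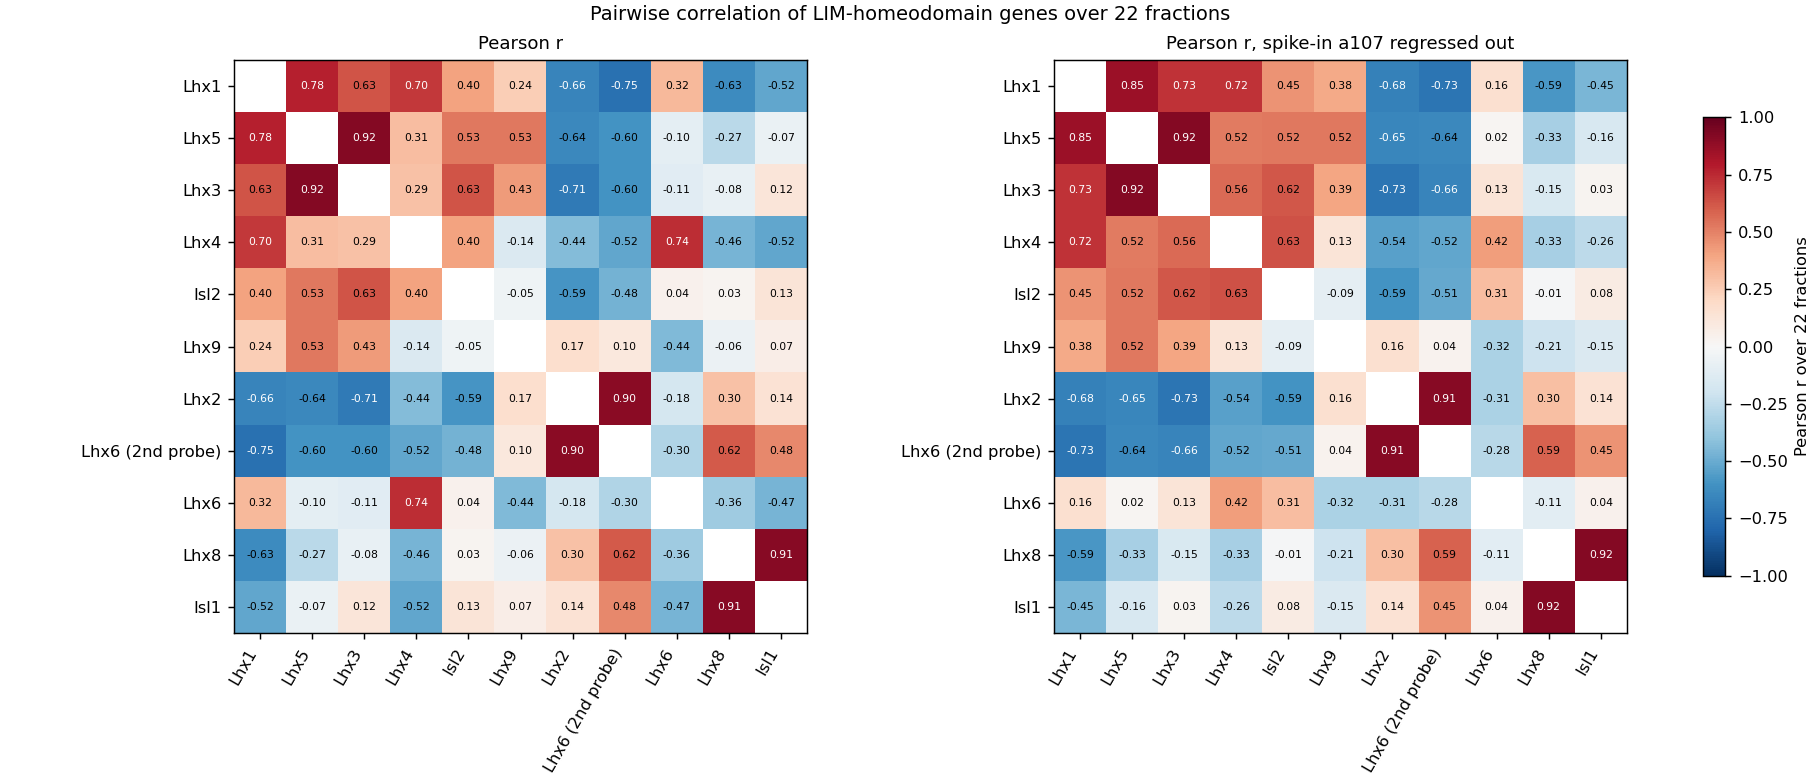
Pearson r between the members over 22 fractions, as measured (left) and with spike-in a107 regressed out of each gene (right), with Lhx6 shown by both detected probes and the colour scale running from -1 to 1. Lhx3 with Lhx5 (0.92), Lhx8 with Isl1 (0.91) and Lhx2 with the second Lhx6 probe (0.90) are the highest on the left, Lhx1 with Lhx5 goes from 0.78 to 0.85, and Lhx4 with Lhx6 falls from 0.74 to 0.42.

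The r of close relatives in the family varied between pairs and between series. Lhx1 and Lhx5 had r of 0.779 (0.932 within the coronal series, 0.0888 within the horizontal and 0.726 within the sagittal series). For Lhx3 with Lhx4 it was 0.290, with 0.736, -0.689 and 0.061 within the coronal, horizontal and sagittal series and 0.565 with a107 regressed out. For Lhx2 with Lhx9 it was 0.170, with 0.311, -0.112 and -0.964 within the series. For Isl1 with Isl2, with Isl2 detected on 2 arrays, it was 0.126. Lhx6 with Lhx8 had -0.355 by the probe with the highest median, but 0.352 over the in-range arrays. By the second probe it had 0.615, with 0.350 over the 15 arrays where both were well above background and -0.630 within the sagittal series. Lhx4 with Lhx6, by the probe with the highest median, had 0.736, which was 0.420 with a107 regressed out and 0.135 over the in-range arrays. Lhx2 with the second Lhx6 probe had 0.901, but 0.371 on the 19 arrays where both were well above background and -0.512 within the horizontal series, against 0.956 within the coronal series, where that probe was below background in fractions 1 to 3, and 0.867 within the sagittal series.

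The genes whose course was most like each member were looked up among the 16682 other genes tested, with the members themselves left out. For Lhx1 they were Zfp687 (r of 0.909), Kmt5a (0.908) and Pax3 (0.901), the last a homeobox factor of the dorsal neural tube. For Lhx5 they were Bves (0.958), Slco4a1 (0.952) and Ebf3 (0.949), and for Lhx3 9630013A20Rik (0.929), Rdh5 (0.915) and Il33 (0.914). Lhx2 was closest to Tnfrsf19 (0.963), Mpped1 (0.956) and Nrgn (0.955), a postsynaptic protein of forebrain neurons. Lhx9 had 2 genes above 0.85, Tcf7l2 (0.933), a thalamic transcription factor, and Tpsg1 (0.909), with Zfhx3 next (0.799). Lhx8 had 1, Ppp1r1b (0.862), the striatal phosphatase inhibitor DARPP-32, followed by Rarb (0.825) and Fezf1 (0.814). With a107 regressed out Ppp1r1b stood at 0.846, and within the sagittal series at -0.058. Isl1 had 1 as well, Nkx2-1 (0.888), a factor of the medial ganglionic eminence and hypothalamus, followed by Pdzd3 (0.844) and Fezf1 (0.842). Nkx2-1 was well above background on 12 arrays, and with a107 regressed out its r was 0.840. For Lhx4 they were Gjc3 (0.877), D3Ertd751e (0.867) and Crtam (0.861), which fell to 0.784, 0.755 and 0.736 with a107 regressed out. The Lhx6 probe with the highest median was closest to Snap23, Krt222 and Tacr2 (each 0.997) and had 983 genes above 0.85, while the second probe was closest to Tbr1 (0.974), Gda (0.968) and Myo5b (0.961). Within the horizontal series these stood at -0.165, 0.709 and 0.092. For Isl2, below background on 20 arrays, they were Hoxb4 (0.852), Hoxb2 (0.849) and Hoxc4 (0.830).

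Of the 10 cofactors and LIM-only proteins, 6 changed along the coronal axis, and for 5 of these the linear term was positive. Over all probes 19.8% were called, 4907 of the 7855 with a positive term and 2948 with a negative term. That balance moved with the scaling, to 4783 and 4842 with the percentile taken over probes detected on all arrays, 2652 and 2453 with no scaling, and 4115 and 1564 with median centring. Lmo3 rose by 3.34 ± 0.62 log2 units from end to end (adjusted p 0.00487 in limma), Lmo4 by 2.17 ± 0.33 (0.00112), Ldb2 by 2.24 ± 0.62 (0.0158), Ssbp2 by 1.40 ± 0.30 (0.00784) and Ssbp4 by 1.16 ± 0.22 (0.00757). LMO proteins compete with LIM-homeodomain factors for Ldb1, and SSBP proteins stabilise Ldb1. Ssbp3 fell by 0.41 on the log2 scale (SE 0.19) and was highest in coronal fraction 3. Its adjusted p of 0.0312 in limma is for the linear and quadratic terms together, not for the fall alone. Ldb1 itself had a linear term of -0.12 ± 0.18 and an adjusted p of 0.796 in limma. The median fitted range of the 10 genes was 1.34 log2 units, against 0.99 over all probes. With a107 as a covariate 4 of the 10 passed, since Ldb2 and Ssbp3 did not. The other LIM-homeodomain genes, Lmx1a and Lmx1b, were highest in coronal fractions 5 and 2, and Lmx1a, a factor of midbrain dopamine neurons and the roof plate, passed (linear term -3.23 ± 1.08, adjusted p 0.0310 in limma), while Lmx1b did not (0.0529). Lmx1b had an r of 0.749 with a107, with a median of -1.94 on the 7 arrays out of range and -2.88 on the 15 in range, and the part of array quality in its course was not tested.

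Against the same share over all probes, markers of the cells known to use these genes were counted whole, by the sign of the coronal linear term among those that passed. Of 8 Purkinje cell genes tested 6 passed with a negative term and 1 with a positive term, with a median fitted range of 2.24 log2 units against 0.99 over all probes, led by Pcp2 (-7.73 ± 0.98, adjusted p 0.000682 in limma). Of 10 hindbrain motor and V2 neuron genes 6 passed with a negative term and 1 with a positive term (median range 3.72). Of 16 genes of the medial ganglionic eminence and its interneurons 11 passed, all with a positive term (median range 1.76), led by Dlx2 (11.8 ± 1.09, adjusted p 0.000135). Of 10 cortical and hippocampal genes 7 passed with a positive term and 1, Pax6, with a negative term (median range 4.41), led by Tbr1 (7.56 ± 0.73, adjusted p 0.000135). Striatal genes counted 5 positive and 1 negative of 10 (median range 3.26), hypothalamic genes 3 and 0 of 10 (2.56), thalamic and pretectal genes 2 and 8 of 13 (3.14), and Cajal-Retzius genes 1 and 2 of 6 (1.90).

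Of 9 cholinergic genes tested, from the neurons in which Lhx8 and Isl1 act, 4 passed, all with a negative term, namely Ngfr (-2.75 ± 0.53, adjusted p 0.00806 in limma), the choline transporter Slc5a7 (-2.70 ± 0.70, 0.0362), Zic5 (-3.23 ± 0.84, 0.0279) and Zic4 (-2.82 ± 0.69, 0.0283). Chat, the enzyme that makes acetylcholine, was highest in coronal fraction 1 and had a linear term of -2.48 ± 0.94 with an adjusted p of 0.0542. Of the 4, Ngfr, Zic4 and Zic5 were highest in coronal fractions 2 or 3, where the 8 cerebellar granule cell markers also had their highest summed levels, 166 and 181 times the 75th percentile, against 19.9 to 89.2 in the other coronal fractions. The granule cell marker Zic1 stood at 7.06 in fraction 3, and the part of these cells in the counts was not tested. With a107 as a covariate 1 of the 9 cholinergic genes passed for coronal position, and 3 of the 10 striatal and 2 of the 10 hypothalamic genes. In the horizontal series, where 6.57% of all probes were called, 5 of 10 hypothalamic genes passed with a positive term, among them Avp, Nkx2-1, Ghrh and Trh, the side on which Isl1 was highest, and with a107 as a covariate 0 of these and 38 of the 39621 probes passed.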

How the data were processed

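RNA of 22 brain fractions was hybridised to Agilent arrays in 1 colour (Cy3). Per the file headers, the authors extracted spots with Agilent Feature Extraction 10.10.1.1, whose processed signal is a background-corrected intensity. The authors also deposited a log2 table, which equalled that intensity in log2 less the 75th percentile of its array for 100% of the values, within 0.02, over 47478 matched rows. It was used as an alternative.

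Control spots and 131 to 187 outlier spots per array were left out, no spot was saturated, and spots of a probe were averaged. Each array was taken to log2 and scaled by its 75th percentile, which left 55600 probes with values. A probe was well above background where any of its spots was marked so. The SD between spots of a probe was 0.0649 log2 units for bright and 0.318 for dim probes (medians over arrays). Of 28087 RefSeq probes 26553 matched the RefSeq table of GRCm38.p6, which was used for names and promoters only, since the array was designed on another build. Groups are the section planes in the labels, and position is the slab midpoint, since coronal fraction 10 pools slabs 10 and 11, sagittal fraction 1 slabs 1 and 2, and sagittal fraction 6 slabs 7 to 9. The labels give slabs of 100 slices of 5 µm and the methods a thicker fraction.

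In R 4.3.3, limma 3.58.1 fitted 1 model to all 22 arrays, in which each series had its own mean, slope and curvature (13 residual degrees of freedom, median residual SD 0.376). The spread is the scatter of single arrays around these curves and holds no difference between animals. F tests were used for the coronal and horizontal series and separate tests for the sagittal terms, with Benjamini-Hochberg adjustment over 39621 probes and a threshold of 0.05. The linear term is scaled to the difference from end to end. On simulated data with 200 changed probes of 39621, changed by 10 residual SD, the coronal test recovered 100% with 10 false calls, the horizontal test 99.5% with 20, the test of the sagittal slope 99% with 8 and that of the curvature 100% with 9. Correlations and figures were made in Python 3.11.15 with numpy 2.4.6, pandas 2.3.3 and matplotlib 3.10.9.

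Named genes were the members, the 3 genes other than members with the highest r with each, and the leading or all passing genes of lists. The members and lists were chosen with earlier results of these data known. Alternatives were normexp background correction (offset 50, on the median signal and median background, since the mean signal is not used here), 5 other scalings or tables, 2 other filters, a107 as a covariate, arrays with the slope in range, the linear term alone, each series alone, moderation with trend and robust, slide as a random block, each fraction left out, and other probes of a gene. For pairs, rho, each series and slide, and arrays with both genes well above background were also used, the last of these added after seeing the data.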

Additional observations from a re-analysis of the deposited data

Results flagged for a closer look

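Isl1 in sagittal fraction 1, at -3.68, lay far from the other 5 sagittal fractions, which ran from -2.18 to -1.29. Its gap to the nearest was 0.6253 of the range, against Dixon's critical value of 0.625. It was the only case among 30 gene and series groups tested, where chance flags about 1 in 20. Sagittal fraction 1 is an end slab of the brain and 1 of the 7 arrays with the spike-in slope out of range.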

How the results depend on the processing

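No paired analysis was possible because equal fraction numbers are positions on different axes of different mice. The coronal calls of Lhx1 and Lhx5 were kept under all 14 alternatives and without each of the 22 fractions, and those of Lhx2 and Lhx3 under all but in-range arrays (adjusted p 0.0960 and 0.0519 in limma) and the coronal series alone (0.0756 and 0.0714). Of the 9 members, 8 of which were called for coronal position by the main settings, 4 were called with a107 as a covariate, 4 of 5 over probes detected on all 22 arrays, 2 on in-range arrays, 2 with the series alone and 5 with slide as a block, and 5 to 8 with 1 fraction left out, the lowest without coronal fraction 2, 6, 7 or 9. For horizontal position (2 of 9) the count was 4 with no scaling, 1 with normexp, 1 without a filter, 1 of 5 over probes detected on all arrays, 1 with the linear term alone, and 0 with a107, in-range arrays or the series alone, and 0 to 4 with 1 fraction left out, with 0 without horizontal fraction 1, 2, 5 or 6 and 4 without coronal fraction 1. For the sagittal terms (0 of 9) the linear count was 1 with no scaling, the quadratic count 1 with normexp, no scaling or probes detected on all arrays, and leaving out 1 fraction gave 0 to 1 and 0 to 2, the highest without coronal fraction 1.

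Over all probes in limma, the 7855 coronal calls were 5105 with no scaling, 4314 with a107, 4129 on in-range arrays, 2821 with the linear term alone, 635 with the series alone, 4750 with slide as a block and 4871 to 10713 with 1 fraction left out. The 2604 horizontal calls were 1224 with median centring, 1484 without a filter, 4169 over probes detected on all arrays, 38 with a107, 13 on in-range arrays, 206 with the linear term alone, 0 with the series alone (10611 at an unadjusted p under 0.05), 4480 with slide as a block and 9 to 6530 with 1 fraction left out. The 4046 sagittal linear calls were 6240 with normexp, 1681 with median centring, 1874 with quantile normalization, 2527 with a107, 1 on in-range arrays, 4 with the linear term alone, 0 with the series alone (12746 unadjusted) and 0 to 4965 with 1 fraction left out, 0 without sagittal fraction 1 (2783 unadjusted). The 12 quadratic calls were 911 with normexp, 0 with median centring (3789 unadjusted), 0 with quantile normalization (4472 unadjusted), 219 with no scaling, 506 with the percentile over probes detected on all arrays, 534 over such probes only, 1 on in-range arrays, 0 with the series alone (8856 unadjusted), 236 with trend and robust moderation, 253 with slide as a block and 0 to 394 with 1 fraction left out. The causes were not tested.

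The pairs above r 0.85, 2 by the main settings, were 1 with normexp, 4, 4 and 11 within the coronal, horizontal and sagittal series, 4, 7 and 4 within slides 1, 3 and 4, and 0 of 10 over members detected on all arrays. The sign turned for Lhx6 on in-range arrays (coronal adjusted p 0.562, horizontal 0.999999) and with a107 for horizontal position (0.786), with its probe that is never above background (0.500, coronal), with its second probe (0.000157 coronal, 0.882 horizontal), for Lhx5 in horizontal position on in-range arrays (0.999999), and for r of Lhx2 with the second Lhx6 probe within the horizontal series, which is also slide 4 (-0.512). Over 8 alternatives the highest fraction stayed in 4 for Lhx1 in the coronal and sagittal series and for Lhx9 in the horizontal series, in 3 for Lhx5 in the sagittal series, and in at least 5 otherwise. Highest fractions were not compared across filters, which leave values as they are, or left-out fractions, which move a peak by construction. Below background, signal limits a value to a bound.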

Other observations

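Other tissues in which members of the family are known to act were also read from their markers. Retinal markers (5 of 6 measured) had a summed level of 0.0910 to 0.657 times the 75th percentile over the coronal series and 0.196 to 0.762 in the other series, and the rod and cone genes Rcvrn, Pde6b and Opn1sw were well above background on 5, 2 and 8 arrays. Of the pineal markers, Crx and Gngt1 were well above background on 2 and 1 arrays, Tph1 on 16, and Aanat, Sag, Rom1 and Pde6c on 21 or 22. Pineal markers (7 of 8 measured) had a summed level of 1.96 to 2.74 over the coronal series and 2.08 to 3.66 over the others, with the highest in sagittal fraction 4, and hair cell markers (6 of 6) of 3.02 to 5.47 over the coronal series and 3.18 to 5.10 over the others. Of the hair cell markers, Tmc1 and Cdh23 were each well above background on 1 array, and Otof, Myo7a, Slc17a8 and Ocm on all 22.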
